A study of Mus musculus with 10 samples.

Results

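The colony-stimulating factors are the cytokines that drive the formation, survival and activation of myeloid cells, and this account covers 8 of their ligand and receptor genes in mouse melanoma tumors. The genes are Csf1, Il34, Csf1r, Csf2, Csf2ra, Csf2rb, Csf2rb2 and Csf3, taken by symbol, and all 8 stood among the 27919 symbols of the deposited table. The tumors grew from B16F10, a pigmented mouse melanoma line, and either overexpressed Ly86 or carried the vector alone. Every mouse in both groups had received 4 rounds of anti-PD-1 and anti-CTLA4, antibodies that block inhibitory receptors on T cells, and tumors were snap-frozen when harvested. There were 4 Ly86 tumors (5 libraries) and 3 Vector tumors (5 libraries) of polyadenylated RNA. Of these, Ly86 tumor 1, Vector tumor 1 and Vector tumor 2 gave 2 pieces each, sequenced separately. The sources used here do not give the host strain, sex or age, the promoter of the construct, or whether each line was 1 clone.

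CSF1 (also called M-CSF) and IL-34 are separate ligands of one receptor tyrosine kinase, CSF1R, on which monocytes and most macrophages depend. CSF2 (GM-CSF) binds a receptor made of a specific alpha chain, CSF2RA, and a signaling beta chain, CSF2RB, which is shared with the receptors for IL-3 and IL-5. Mice carry another beta chain gene, Csf2rb2, whose product serves IL-3 only. CSF3 (G-CSF) acts through CSF3R and drives neutrophil production. In tumors, CSF1 is known as a main support of tumor macrophages and CSF2 as a product of activated T cells and some tumor cells.

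Values are TPM, transcripts per 1000000 within a library, or log2(TPM + 1). TPM is scaled by transcript length, so levels of different genes can be set side by side, but it keeps no read depth, and the precision of each library is unknown. The tumor was the replicate, with the log2 values of its pieces averaged. Whether every tumor grew in its own mouse is not stated in the labels, and the p-values cover no more than the spread among these 7 tumors. Genes with a mean of at least 1 TPM over the tumors entered limma, 14556 in all, with adjustment over all of them and a threshold of 0.05. Csf2 and Csf3 missed that minimum, so 6 of the 8 genes were tested.

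Some features of the whole series bear on every result. The libraries detected 19304 to 21882 genes. Ly86 itself lay between 49.2 and 81.9 TPM in Ly86 libraries and between 6.24 and 80.9 TPM in Vector libraries, the highest Vector value coming from the first piece of Vector tumor 2. The log2 difference of Ly86 was 1.69 (SE 0.40, limma adjusted p = 0.437). That piece stood apart from the other Vector libraries. Its 20 macrophage and monocyte marker genes summed to 8266 TPM and its 12 fibroblast markers to 5688 TPM, against 2251 and 125.0 TPM in the second piece of the same tumor. Its melanocyte lineage markers summed to 10165 TPM, the lowest of the 10 libraries, against 19655 TPM in the second piece. The 10 melanocyte lineage markers were above 0 in every library. In tumor RNA, a lower number of cells of one type and less RNA per cell cannot be told apart.

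All 6 tested genes averaged higher in the Ly86 tumors, and none passed the test. Of the 14556 genes tested, 0 passed (0.0%), and 43.8% averaged higher in the Ly86 tumors. At an unadjusted p under 0.05, 2 of the 6 were higher, Csf1 and Csf1r, where 5.78% of all tested genes were. With the log2 values of pieces averaged, the Ly86 and Vector tumors did not overlap for Csf1 only. Of all tested genes, 4.71% had every Ly86 tumor above every Vector tumor and 5.75% had every one below. The median log2 difference of the 6 was 0.75, and that of all tested genes was -0.037. Without the first piece of Vector tumor 2, all 6 still averaged higher and none passed. In that setting 5 of the 6 had an unadjusted limma p under 0.05, Csf1, Csf1r, Csf2ra, Csf2rb and Csf2rb2. The background rose too, since 1633 of the 14556 tested genes were then higher at that level, against 841 with all pieces. Csf1, Csf2rb and Csf2rb2 then had every Ly86 tumor above every Vector tumor, as had 8.53% of all tested genes. Using second pieces alone for the divided tumors gave the same 3 genes, against 8.34% of all tested genes, and first pieces alone gave 0 of the 6, against 1.46%. Csf2rb and Csf2rb2 are close copies in sequence, and how reads shared by them were assigned is unknown, so they need not count as separate results.

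**Figure D1:**
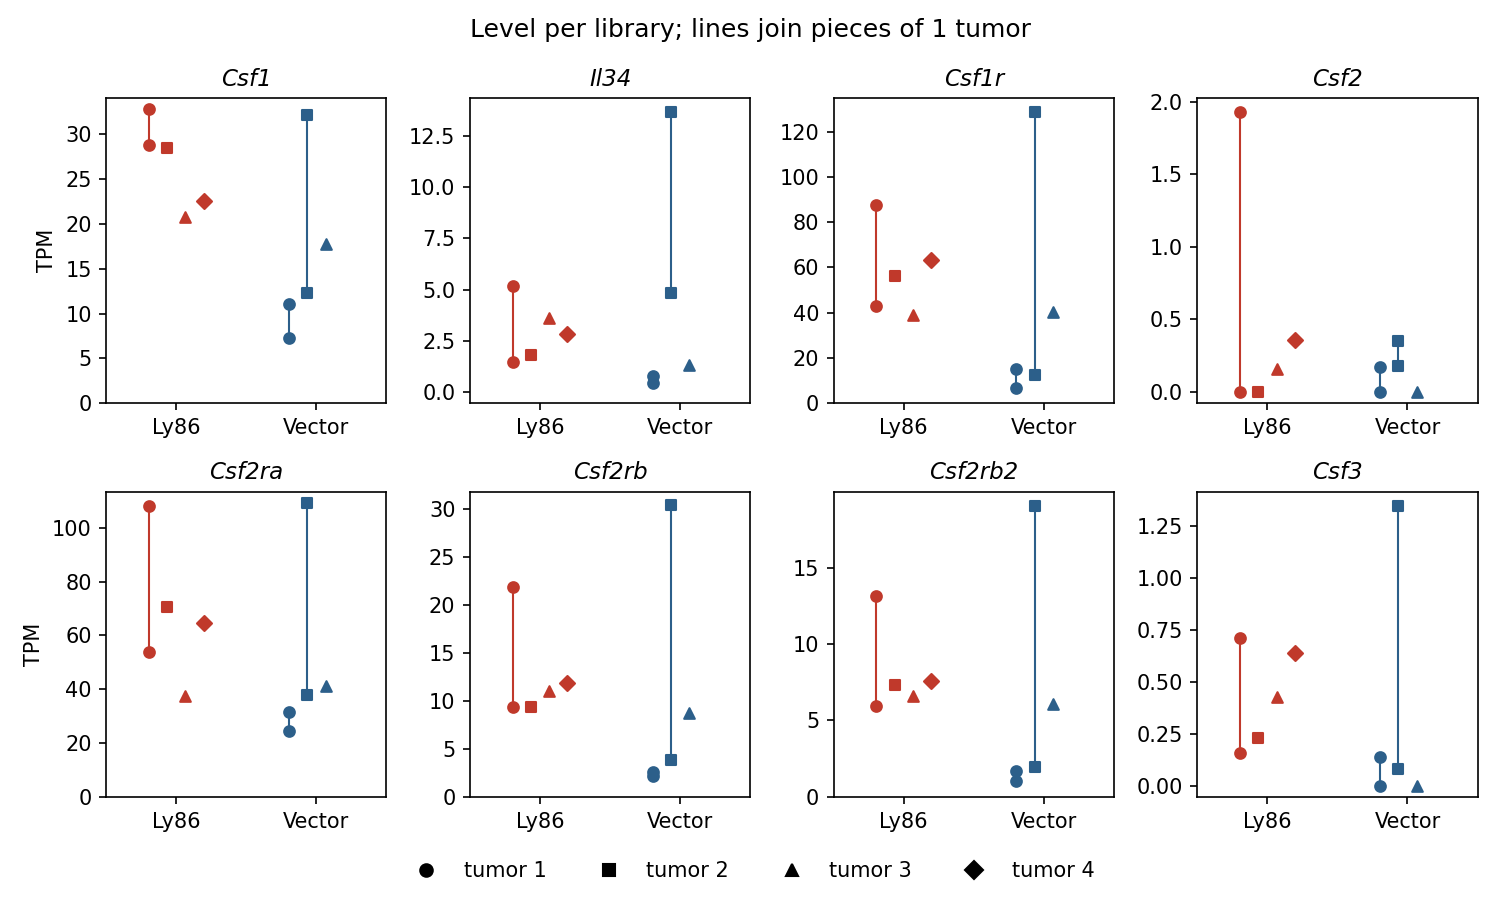
TPM of the 8 genes in each library, Ly86 in red and Vector in blue, with 1 symbol shape per tumor number and lines joining the 2 pieces of a divided tumor. The first piece of Vector tumor 2 is the highest library for Csf1r at 128.8 TPM, while the second piece lies at 12.5 TPM, and Csf2 and Csf3 stay below 2 TPM in all libraries.

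Csf1, the ligand made by many stromal and tumor cells, held 28.8 and 32.8 TPM in the pieces of Ly86 tumor 1 and 28.5, 20.8 and 22.5 TPM in Ly86 tumors 2, 3 and 4. It held 11.1 and 7.29 TPM in the pieces of Vector tumor 1, 32.2 and 12.4 TPM in those of Vector tumor 2, and 17.8 TPM in Vector tumor 3. Each Ly86 tumor lay above each Vector tumor once the log2 values of pieces were averaged. Even so, 1 Vector piece lay near the top of the Ly86 libraries. With TPM averaged over pieces instead, Vector tumor 2 held 22.3 TPM and lay above Ly86 tumor 3, so the groups overlapped. Csf1 averaged 4.72 ± 0.26 log2(TPM + 1) in Ly86 tumors and 3.98 ± 0.58 in Vector tumors (SD, n = 4 and 3). The log2 difference was 0.73 with a 95% interval of 0.12 to 1.35, and the limma adjusted p was 0.441. Leaving out Vector tumor 1 gave 0.40, as did using first pieces alone, and averaging TPM before log2 gave 0.68.

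Il34, the alternative CSF1R ligand, best known from keratinocytes and neurons, was far lower than Csf1. Its level was 5.18 and 1.46 TPM in the pieces of Ly86 tumor 1 and 1.80, 3.63 and 2.85 TPM in Ly86 tumors 2, 3 and 4. Vector tumor 1 held 0.44 and 0.76 TPM, Vector tumor 2 held 13.7 and 4.83 TPM, and Vector tumor 3 held 1.32 TPM. The Vector tumors lay on both sides of the Ly86 tumors, and Vector tumor 2 was the highest of the 7. Il34 averaged 1.90 ± 0.30 log2(TPM + 1) in Ly86 tumors and 1.70 ± 1.34 in Vector tumors (SD, n = 4 and 3). The log2 difference of 0.20 had a 95% interval of -1.08 to 1.48 and a limma adjusted p of 0.933. Its sign turned when Vector tumor 1 (-0.31) or Vector tumor 3 (-0.039) was left out, and the difference was 0.96 without Vector tumor 2 and 0.42 without only its first piece. Il34 minus the mean of the keratinocyte markers stood at 0.30 ± 2.22 log2 units in Ly86 tumors and -0.43 ± 0.91 in Vector tumors (SD, exact permutation p = 0.629, n = 4 and 3). The difference was 0.73, and 0.11 when Vector tumor 2 lacked its first piece.

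Keratinocyte genes were high in the same libraries that held the most Il34 within their group. The 10 keratinocyte markers summed to 2823 TPM in the first piece of Ly86 tumor 1 and to 812.1 TPM in the first piece of Vector tumor 2. In the other libraries the sum was 2.94 to 183.2 TPM in Ly86 tumors and 2.60 to 70.8 TPM in Vector tumors. The basal keratin genes Krt5 and Krt14 were listed at 0 in 3 of 10 libraries each. The second piece of Vector tumor 2, with 4.83 TPM of Il34, had the lowest keratinocyte sum. The part of skin tissue in the Il34 values was not tested.

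Csf1r, the receptor that marks mononuclear phagocytes, held 42.8 and 87.5 TPM in the pieces of Ly86 tumor 1 and 56.3, 39.1 and 63.2 TPM in Ly86 tumors 2, 3 and 4. The pieces of Vector tumor 1 held 6.60 and 15.3 TPM, those of Vector tumor 2 held 128.8 and 12.5 TPM, and Vector tumor 3 held 40.2 TPM. In the Vector group, 3 of 5 libraries lay below every Ly86 library and 1 lay above every one. Ly86 tumor 3 lay just under Vector tumors 2 and 3, so the groups overlapped. The mean was 5.78 ± 0.31 log2(TPM + 1) in Ly86 tumors and 4.74 ± 1.10 in Vector tumors (SD, n = 4 and 3). This log2 difference of 1.04, the largest of the 6 genes, had a 95% interval of 0.0055 to 2.08 and a limma adjusted p of 0.462. It was 1.59 without the first piece of Vector tumor 2, 0.55 from first pieces alone, 0.41 without Vector tumor 1 and 0.53 with limma's array weights. Averaging TPM over pieces before log2 gave 0.77, and Vector tumor 2, at 70.6 TPM, was then the highest tumor.

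**Figure D2:**
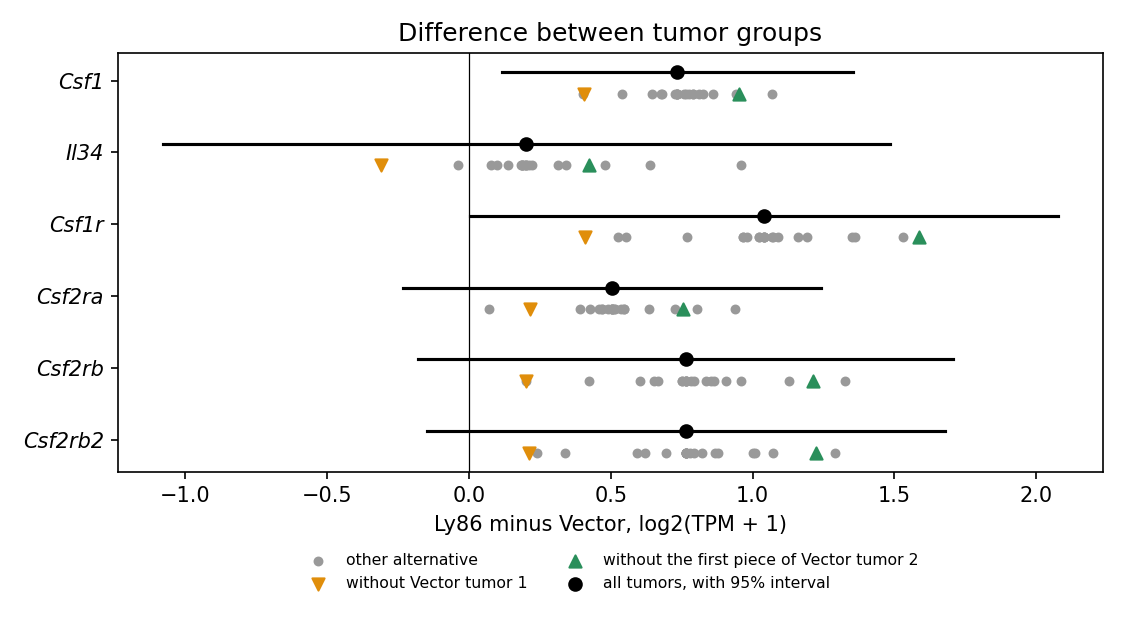
Log2 difference, Ly86 minus Vector, of the 6 tested genes, with the value from all tumors and its 95% interval in black and the values under the alternative settings below it. All point values lie above 0 apart from Il34 when Vector tumor 1 (-0.31) or Vector tumor 3 (-0.039) was left out.

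The macrophage and monocyte markers moved with Csf1r. All 20 were tested, 20 averaged higher in the Ly86 tumors and 0 passed, with a median log2 difference of 1.20. That median was 0.49 from first pieces alone, 1.85 from second pieces alone, 1.81 when Vector tumor 2 lacked its first piece, 0.58 without Vector tumor 1 and 0.59 with array weights. Their summed level was 3643 to 6475 TPM in Ly86 libraries and 2080 to 8266 TPM in Vector libraries, and none was at 0 in any library. Set against the mean of these markers within each library, Csf1r was -0.28 ± 0.10 log2 units in Ly86 tumors and -0.27 ± 0.19 in Vector tumors (SD, n = 4 and 3). The difference of -0.0098 had an exact two-sided permutation p of 0.971, where the smallest p that 35 assignments of 7 tumors allow is 0.0286. The sign of this small value turned in 6 of 15 alternative settings, within -0.11 to 0.095. In the pieces of Vector tumor 2, which differed 10.3-fold in Csf1r, the value was -0.16 in the first and -0.0074 in the second. The lowest library was the first piece of Vector tumor 1, at -0.74.

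Over the 7 tumors, the genes whose profile lay closest to that of Csf1r were Nckap1l, Tyrobp and Laptm5. Each gene was centred on its own mean, and the measure was the root mean square difference in log2(TPM + 1), which was 0.040 for Nckap1l, 0.070 for Tyrobp and 0.078 for Laptm5. The SD of Csf1r over the tumors was 0.87. For Csf1, with an SD of 0.55, the nearest were Nfkbid at 0.090, Gimap1 at 0.093 and Nlrp1b at 0.094. Il34 had no gene as near. Its closest were Ctla4 at 0.24, Ccn1 at 0.26 and Rtn4rl2 at 0.28, with an SD of 0.81.

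Csf1r stood above its ligand Csf1 by 1.06 ± 0.26 log2 units in Ly86 tumors and by 0.76 ± 0.53 in Vector tumors (SD, n = 4 and 3). The difference of 0.31 gave an exact permutation p of 0.486, and omitting the first piece of Vector tumor 2 gave 0.63 (exact permutation p = 0.171). By library, the lowest value was -0.67 in the first piece of Vector tumor 1, where Csf1 exceeded Csf1r, and the highest was 1.97 in the first piece of Vector tumor 2. Csf1r stood above Il34 by 3.88 ± 0.53 log2 units in Ly86 tumors and by 3.04 ± 1.01 in Vector tumors, with an exact permutation p of 0.229 (n = 4 and 3). Csf1 stood above Il34 by 2.82 ± 0.50 log2 units in Ly86 tumors and by 2.29 ± 0.97 in Vector tumors, with an exact permutation p of 0.429 (n = 4 and 3). Against the melanocyte lineage markers, Csf1 stood at -4.34 ± 0.29 in Ly86 tumors and -5.10 ± 0.75 in Vector tumors, a difference of 0.76 with an exact permutation p of 0.0857. It was 1.14 (exact permutation p = 0.0286, adjusted over 11 to 0.314) without the first piece of Vector tumor 2, 1.27 (exact permutation p = 0.0286) from second pieces alone, 0.25 (exact permutation p = 0.743) from first pieces alone and 0.35 without Vector tumor 1. Against the fibroblast markers it stood at -1.04 ± 0.69 in Ly86 tumors and -0.34 ± 0.20 in Vector tumors, a difference of -0.70 with an exact permutation p of 0.229. It was -1.30 without the first piece of Vector tumor 2, -0.41 from first pieces alone and -0.17 with TPM averaged over pieces before log2. In all, 11 such balances were computed, and with all pieces the adjusted p was 0.566 or higher for each.

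Csf2ra, the alpha chain that binds GM-CSF, had the highest mean level of the 8 genes in both groups. It held 53.8 and 108.0 TPM in the pieces of Ly86 tumor 1 and 70.6, 37.4 and 64.8 TPM in Ly86 tumors 2, 3 and 4. Vector tumor 1 held 31.7 and 24.6 TPM, Vector tumor 2 held 109.1 and 37.9 TPM and Vector tumor 3 held 41.3 TPM. With log2 values averaged over pieces, Ly86 tumor 3 lay inside the Vector range and the other Ly86 tumors lay above it. Ly86 tumor 4, at 6.04 log2(TPM + 1), was then barely above Vector tumor 2, at 6.03. With TPM averaged over pieces instead, Vector tumor 2 held 73.5 TPM, above Ly86 tumors 2, 3 and 4. The mean was 5.93 ± 0.46 log2(TPM + 1) in Ly86 tumors and 5.43 ± 0.59 in Vector tumors (SD, n = 4 and 3). The log2 difference of 0.50 had a 95% interval of -0.23 to 1.24 and a limma adjusted p of 0.598. It was 0.22 without Vector tumor 1, 0.81 without Vector tumor 2, 0.94 from second pieces alone and 0.071 from first pieces alone. Averaging TPM before log2 gave 0.46. With array weights, an estimate that did not reach its convergence tolerance and gave Vector tumor 3 a weight of 22.8 and every other tumor less than 1, it was 0.63 and passed at an adjusted p of 0.04999. Of all tested genes, 1832 passed in that fit.

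Csf2ra varied less between libraries than Csf1r, Csf2rb, Csf2rb2 and Csf3r, and more than Il3ra. Its highest library was 4.43 times its lowest, against 19.5 times for Csf1r, 13.9 for Csf2rb, 18 for Csf2rb2 and 16.7 for Csf3r, the receptor for G-CSF. Il3ra, the alpha chain of the IL-3 receptor, varied 2.51 times, between 35.8 and 57.8 TPM in Ly86 libraries and between 23.0 and 43.9 TPM in Vector libraries. Set against the macrophage markers, Csf2ra stood at -0.13 ± 0.29 log2 units in Ly86 tumors and 0.42 ± 0.57 in Vector tumors (SD, n = 4 and 3), a difference of -0.55 with an exact permutation p of 0.143. It was -0.87 without the first piece of Vector tumor 2. By library, Csf2ra was highest at 1.52 in the second piece of Vector tumor 2 and 1.36 in the first of Vector tumor 1. These libraries had the lowest macrophage sums, 2251 and 2080 TPM. The scale subtracts the marker mean, so a low mean by itself raises the value. Csf2rb was also highest on this scale in these libraries. Csf1r was instead lowest in the first piece of Vector tumor 1, at -0.74. Which cells supplied Csf2ra in either library was not tested. Of the tested genes, Rubcnl, Stat4 and Nfix lay closest to the profile of Csf2ra over the 7 tumors, each at a root mean square difference of 0.12, where the SD of Csf2ra was 0.54.

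Csf2rb and Csf2rb2, the beta chain genes, are close copies that neighbour each other on chromosome 15, with no other gene between them in the RefSeq annotation of GRCm38.p6. Their coding sequences are shown because the likeness bears on how far the separate values can be trusted. In 1 GENCODE M21 transcript of each gene, 2506 of 2629 aligned coding bases were identical, 95.3%. A stretch of 100 bases of the Csf2rb coding sequence was found unchanged in that of Csf2rb2 at 11% of positions, and a stretch of 50 bases at 26%. The longest identical run was 242 bases. The 90 bases in which they differ most, from coding base 308 of Csf2rb and 311 of Csf2rb2, are given here in the 5′ to 3′ direction, with the 16 differing bases in capitals.
Csf2rb: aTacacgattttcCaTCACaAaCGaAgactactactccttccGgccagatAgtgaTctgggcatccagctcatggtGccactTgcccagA
Csf2rb2: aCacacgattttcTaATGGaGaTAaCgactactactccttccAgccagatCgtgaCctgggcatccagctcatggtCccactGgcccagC
The start of the longest identical run, from coding base 2083 in both, holds no such difference. Reads from RNA fragments that lie wholly inside the run cannot be assigned to either gene by sequence.
Csf2rb and Csf2rb2: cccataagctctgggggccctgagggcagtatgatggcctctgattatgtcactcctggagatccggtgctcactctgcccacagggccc

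Csf2rb, the beta chain shared by the GM-CSF, IL-3 and IL-5 receptors, held 9.34 and 21.8 TPM in the pieces of Ly86 tumor 1 and 9.39, 11.1 and 11.9 TPM in Ly86 tumors 2, 3 and 4. Vector tumor 1 held 2.19 and 2.62 TPM, Vector tumor 2 held 30.4 and 3.81 TPM and Vector tumor 3 held 8.69 TPM. Of the Vector libraries, the first piece of Vector tumor 2 alone reached the Ly86 values. Because of that piece, Vector tumor 2 averaged above Ly86 tumors 2 and 3. The mean was 3.65 ± 0.23 log2(TPM + 1) in Ly86 tumors and 2.89 ± 0.99 in Vector tumors (SD, n = 4 and 3). The log2 difference of 0.76 had a 95% interval of -0.18 to 1.71 and a limma adjusted p of 0.533. It was 1.21 without that piece, 1.33 from second pieces alone, 0.20 from first pieces alone, 0.20 without Vector tumor 1 and 0.42 with array weights. Averaging TPM over pieces before log2 gave 0.60, and Vector tumor 2, at 17.1 TPM, was then the highest tumor.

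Csf2rb2, the beta chain that serves IL-3 only, held 5.97 and 13.2 TPM in the pieces of Ly86 tumor 1 and 7.30, 6.61 and 7.59 TPM in Ly86 tumors 2, 3 and 4. Vector tumor 1 held 1.06 and 1.67 TPM, Vector tumor 2 held 19.1 and 1.98 TPM and Vector tumor 3 held 6.07 TPM. The first piece of Vector tumor 2 lay above every Ly86 library, and Vector tumor 3 exceeded the lowest Ly86 library. The mean was 3.10 ± 0.16 log2(TPM + 1) in Ly86 tumors and 2.33 ± 0.96 in Vector tumors (SD, n = 4 and 3). The log2 difference of 0.77 had a 95% interval of -0.15 to 1.68 and a limma adjusted p of 0.520. It was 1.22 without the first piece of Vector tumor 2, 1.29 from second pieces alone, 0.24 from first pieces alone, 0.21 without Vector tumor 1 and 0.34 with array weights. Averaging TPM over pieces before log2 gave 0.59, and Vector tumor 2, at 10.5 TPM, was then the highest tumor.

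The ratio between the beta chain genes was nearly fixed. Csf2rb2 minus Csf2rb was -0.55 ± 0.16 log2 units in Ly86 tumors and -0.55 ± 0.11 in Vector tumors (SD, n = 4 and 3), a difference of 0.0017 with an exact permutation p of 0.971. The sign of so small a value turned in 5 of 15 alternative settings, within -0.074 to 0.096. The part of the sequence likeness in this result was not tested. Csf2rb minus Csf2ra was -2.28 ± 0.46 log2 units in Ly86 tumors and -2.54 ± 0.50 in Vector tumors, with an exact permutation p of 0.429 (n = 4 and 3). The difference was 0.26, and 0.46 when Vector tumor 2 lacked its first piece. In every tumor the beta chain was the scarcer partner at the RNA level. Against the macrophage markers, Csf2rb stood at -2.41 ± 0.27 in Ly86 tumors and -2.12 ± 0.25 in Vector tumors, with an exact permutation p of 0.257 (n = 4 and 3). Rab11fip5, Pnp and Rftn1 lay closest to Csf2rb over the 7 tumors, at root mean square differences of 0.11, 0.11 and 0.13. Rftn1, Ctla2b and Pstpip1 lay closest to Csf2rb2, at 0.066, 0.077 and 0.083.

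**Figure D3:**
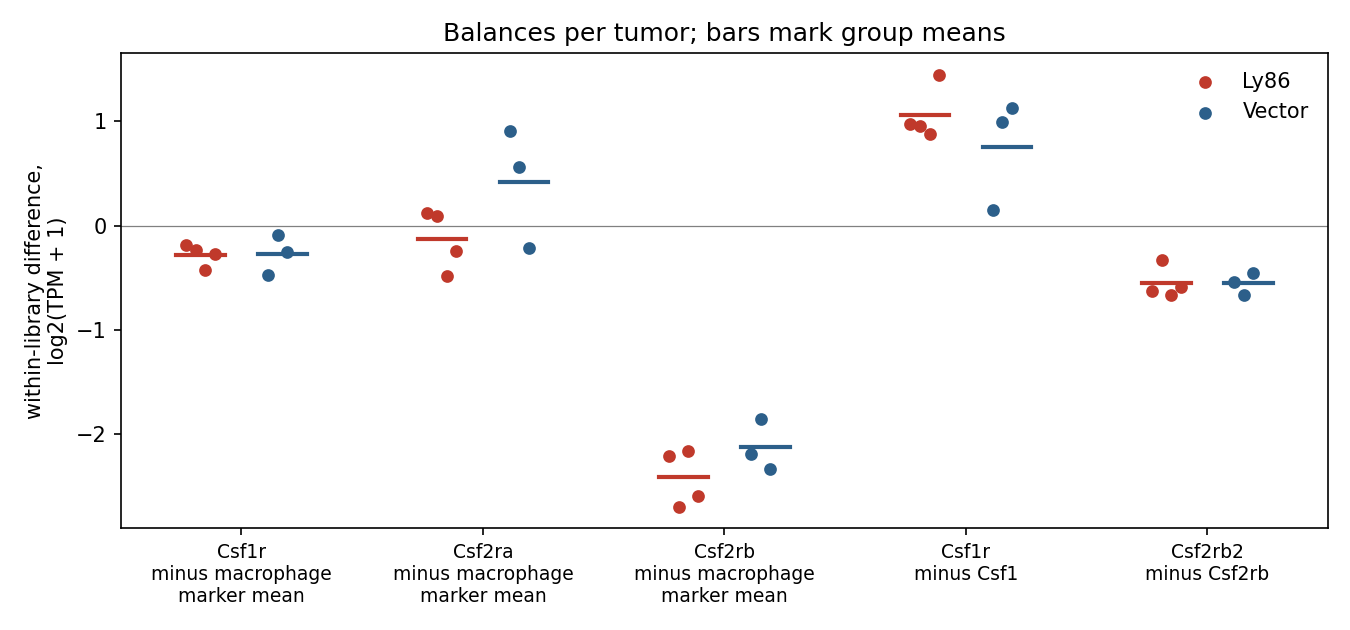
Within-library differences in log2(TPM + 1), averaged per tumor, Ly86 in red left of Vector in blue, with a bar at each group mean. Csf1r minus the macrophage marker mean averages -0.28 in Ly86 and -0.27 in Vector tumors, Csf2rb2 minus Csf2rb averages -0.55 in both, and Csf2ra minus the macrophage marker mean has a Vector SD of 0.57, against 0.19 for Csf1r and 0.25 for Csf2rb.

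Promoters are shown for Csf2ra and Csf2rb2, the receptor genes that RefSeq's table for GRCm38.p6 holds. Both averaged higher in the Ly86 tumors, as did all 6 tested genes, Csf1 among them. The table gave a promoter of 300 bases, 250 before the start and 50 after it, for 4 of the 8 genes, Csf1, Csf2, Csf2ra and Csf2rb2. They were searched on both strands for GAGGAA, core letters that Spi1 (PU.1), the master transcription factor of myeloid cells, is known to bind, which reads TTCCTC from the other strand. Csf2ra held 2 adjoining matches and Csf2rb2 held 2, in capitals here. The promoters of Csf1 and Csf2, not printed, held 0. Of 32851 promoters in the table, 28.3% held at least 1 match. A match is a description of the letters and not a binding site.
Csf2ra, chr19:61228369-61228668, minus strand: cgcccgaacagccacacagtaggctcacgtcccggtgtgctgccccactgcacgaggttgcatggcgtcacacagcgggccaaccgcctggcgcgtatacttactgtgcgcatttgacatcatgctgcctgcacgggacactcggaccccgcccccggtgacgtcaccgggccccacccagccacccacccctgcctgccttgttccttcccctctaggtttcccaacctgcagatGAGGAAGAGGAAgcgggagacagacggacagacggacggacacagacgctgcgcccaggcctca
Csf2rb2, chr15:78305672-78305971, minus strand: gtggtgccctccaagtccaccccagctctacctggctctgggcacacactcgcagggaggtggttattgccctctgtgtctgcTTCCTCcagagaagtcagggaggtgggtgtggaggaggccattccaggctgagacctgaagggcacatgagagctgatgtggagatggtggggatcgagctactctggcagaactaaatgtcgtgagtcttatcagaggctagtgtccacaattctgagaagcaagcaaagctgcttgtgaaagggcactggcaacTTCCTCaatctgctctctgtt
Spi1 held 31.9 to 61.3 TPM in Ly86 libraries and 4.19 to 96.1 TPM in Vector libraries, a log2 difference of 1.25 (SE 0.50, limma adjusted p = 0.453). A part of Spi1 in the levels of these genes was not tested.

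Csf2, which encodes GM-CSF, was close to absent. It was listed at 0 and 1.93 TPM in the pieces of Ly86 tumor 1, at 0 in Ly86 tumor 2 and at 0.16 and 0.36 TPM in Ly86 tumors 3 and 4. Vector tumor 1 held 0.17 and 0 TPM, Vector tumor 2 held 0.35 and 0.18 TPM and Vector tumor 3 was listed at 0. The groups overlapped, and 1 piece of Ly86 tumor 1 held the only value above 1 TPM. Csf3, which encodes G-CSF, held 0.16 and 0.71 TPM in the pieces of Ly86 tumor 1 and 0.23, 0.43 and 0.64 TPM in Ly86 tumors 2, 3 and 4. Vector tumor 1 was listed at 0 and 0.14 TPM, Vector tumor 2 held 1.35 and 0.080 TPM and Vector tumor 3 was listed at 0. All 5 Ly86 libraries had Csf3 above 0.1 TPM, while the highest single value was a Vector piece. No fold change is given for either gene, since both missed the minimum level and the depth behind values this low is unknown.

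The levels of the 8 genes stood in the same order in both groups, Csf2ra, Csf1r, Csf1, Csf2rb, Csf2rb2, Il34, Csf3 and Csf2. Their mean levels, back-transformed from log2, ran from 60.1 TPM for Csf2ra to 0.28 TPM for Csf2 in Ly86 tumors and from 42.1 to 0.11 TPM in Vector tumors. Each step of the order held in every tumor of a group, with 4 exceptions. Csf2ra exceeded Csf1r in 3 of 4 Ly86 tumors, and Csf3 exceeded Csf2 in 3 of 4 Ly86 tumors and 1 of 3 Vector tumors. Csf2rb2 exceeded Il34 in 2 of 3 Vector tumors.

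Pieces of 1 tumor could differ more than the groups did. In Vector tumor 2 the first piece exceeded the second by 3.27 log2 units for Csf1r, 2.71 for Csf2rb, 2.75 for Csf2rb2, 1.5 for Csf2ra, 1.33 for Il34 and 1.31 for Csf1. The median absolute difference over all tested genes was 0.36 between those pieces. Il3ra differed by 0.066 between the same pieces, with 43.9 and 41.9 TPM. In Ly86 tumor 1 the receptor genes ran the other way, and the first piece minus the second was -1.02 for Csf1r, -0.99 for Csf2ra, -1.14 for Csf2rb and -1.02 for Csf2rb2. Csf1 differed by -0.18 there, close to the median absolute difference of 0.20. In Vector tumor 1 the second piece held more Csf1r, by 1.10, and less Csf1, by 0.55. Csf1 and its receptor thus ran in opposite directions between those pieces. Il34, the other ligand, ran with Csf1r there, at only 0.44 TPM in the first piece and 0.76 TPM in the second. In Ly86 tumor 1 it ran against Csf1r and by more, with 5.18 TPM in the first piece and 1.46 TPM in the second.

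**Figure D4:**
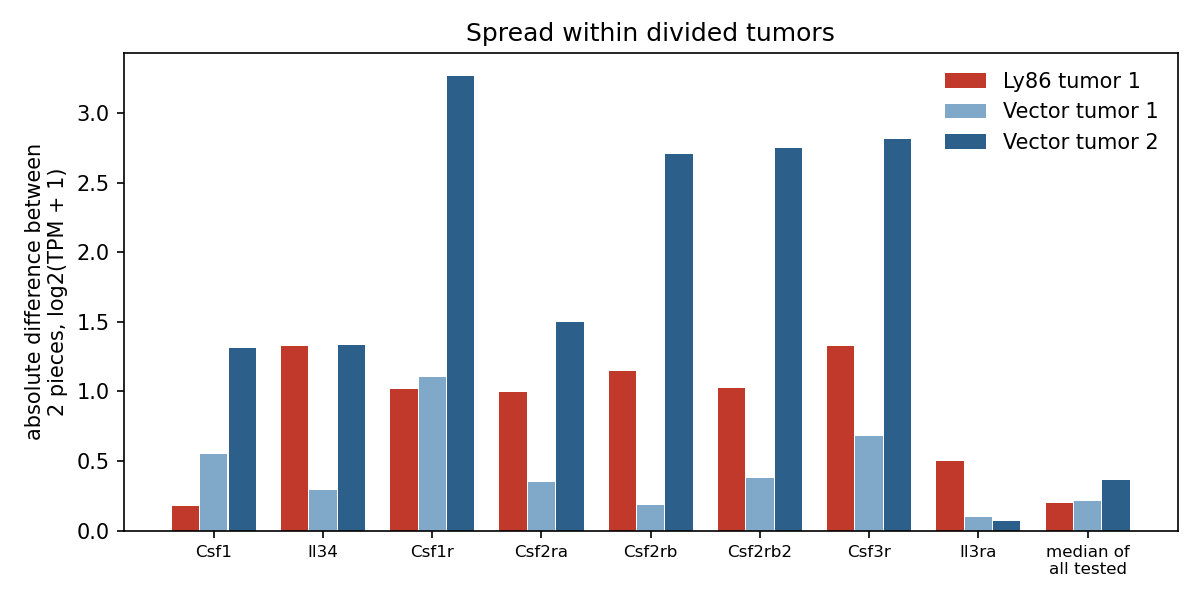
Absolute difference in log2(TPM + 1) between the 2 pieces of each divided tumor, for the 6 tested genes, Csf3r, Il3ra and the median of all tested genes. Vector tumor 2 reaches 3.27 for Csf1r, while Il3ra stays at or below 0.50 in all 3 tumors.

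Other cytokine and receptor genes of the same families were read from a list of 11, of which 6 were tested, 4 averaged higher and 2 lower, and 0 passed. Their median log2 difference was 0.39, with 0.093 from first pieces alone and 0.63 from second pieces alone. Csf3r held 4.97 and 14.01 TPM in the pieces of Ly86 tumor 1 and 6.87, 4.24 and 6.08 TPM in Ly86 tumors 2, 3 and 4. Vector tumor 1 held 0.84 and 1.95 TPM, Vector tumor 2 held 12.9 and 0.97 TPM and Vector tumor 3 held 4.90 TPM. The groups overlapped, and Csf3r averaged 2.86 ± 0.36 log2(TPM + 1) in Ly86 tumors and 2.06 ± 0.73 in Vector tumors (SD, n = 4 and 3), with a limma adjusted p of 0.468. The log2 difference was 0.80, and 1.27 with the first piece of Vector tumor 2 left out. Il3ra averaged 5.49 ± 0.27 in Ly86 tumors and 5.01 ± 0.41 in Vector tumors, with a limma adjusted p of 0.485. Il3, its ligand, was listed at 0 in 9 of 10 libraries and at 1.33 TPM in the first piece of Vector tumor 2. Flt3l, a growth factor of dendritic cell precursors, held 6.34 to 10.4 TPM in Ly86 libraries and 1.19 to 7.23 TPM in Vector libraries, a log2 difference of 0.94 (SE 0.33, limma adjusted p = 0.440). Kit, the stem cell factor receptor, which is also expressed by melanocytes and mast cells, held 12.4 to 20.7 TPM in Ly86 libraries and 15.4 to 43.4 TPM in Vector libraries, a difference of -0.48 (SE 0.22, limma adjusted p = 0.479).

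Among 31 genes that act below these receptors, 23 averaged higher, 8 lower and 0 passed, with a median log2 difference of 0.21. That median was 0.036 with Vector tumor 1 left out and 0.37 when Vector tumor 2 was represented by its second piece. The 4 with the smallest unadjusted p were Socs1, an inhibitor of JAK kinases, Fgr, a SRC family kinase of myeloid cells, Dok2, an adaptor that restrains kinase signaling, and Inpp5d, the phosphatase SHIP1. Socs1 held 6.40 to 14.3 TPM in Ly86 libraries and 0.88 to 6.44 TPM in Vector libraries. Fgr held 4.27 to 13.7 TPM in Ly86 libraries and 0.75 to 10.03 TPM in Vector libraries. Dok2 and Inpp5d had log2 differences of 1.39 (SE 0.43) and 0.87 (SE 0.29), and the limma adjusted p was 0.437 for all 4. Of 19 transcription factors of myeloid cells, 18 were tested, 14 averaged higher, 4 lower and 0 passed, with a median of 0.34. It was 0.12 with Vector tumor 1 left out and 0.67 when Vector tumor 2 was represented by its second piece. Egr2, a zinc finger factor of myeloid cells, had a log2 difference of 0.93 (SE 0.42, limma adjusted p = 0.469). Nr4a1, a nuclear receptor needed by patrolling monocytes, was on the lower side at -0.25 (SE 0.11, adjusted p = 0.457).

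Markers of other cell types that make or receive these factors also differed between libraries, and 0 of them passed. The 10 tested of 12 T and NK cell markers had a median log2 difference of 1.44, with sums of 78.1 to 186.9 TPM in Ly86 libraries and 8.22 to 294.7 TPM in Vector libraries. The 12 fibroblast markers had a median of 1.46, with sums of 1050 to 2949 TPM in Ly86 libraries and 125.0 to 5688 TPM in Vector libraries. Neutrophil markers, 7 of 12 tested, had a median of 1.22 and sums of 15.9 to 96.1 TPM in Ly86 libraries and 3.25 to 115.1 TPM in Vector libraries. Camp and Ngp, which mark immature neutrophils, were at 0 in 8 of 10 libraries each. Dendritic cell markers, 8 of 10 tested, had a median of 0.42 and sums of 163.7 to 236.5 TPM in Ly86 libraries and 190.1 to 285.9 TPM in Vector libraries. Most of these sums was 1 gene, Fscn1, at 138.3 to 206.6 TPM in Ly86 libraries and 139.6 to 273.4 TPM in Vector libraries. Fscn1 averaged lower in Ly86 tumors, by -0.37 (SE 0.15, limma adjusted p = 0.455), while 6 of the 8 averaged higher. Mast cell, basophil and eosinophil markers, 4 of 12 tested, had a median of 1.07 and sums of 21.3 to 64.9 TPM in Ly86 libraries and 0.25 to 142.2 TPM in Vector libraries. The 10 endothelial markers had a median of -0.043 and sums of 112.6 to 204.5 TPM in Ly86 libraries and 97.0 to 407.7 TPM in Vector libraries. The median of the 10 keratinocyte markers was -0.49. That of the 10 melanocyte lineage markers was -0.011, and it turned to 0.022 with median-of-ratios scaling. Vector tumor 2, when represented by its second piece alone, gave other medians. In that setting the median was 2.30 for fibroblast, 1.86 for T and NK cell, 1.63 for neutrophil, 0.73 for dendritic cell and 1.94 for mast cell, basophil and eosinophil markers. The endothelial median turned to 0.40 and the keratinocyte median to 0.36, while the melanocyte lineage median was -0.17. The fibroblast median was 0.82 from first pieces alone and 0.84 with TPM averaged over pieces before log2. From first pieces alone the neutrophil median was 0.37, the dendritic cell median 0.055 and the mast cell, basophil and eosinophil median 0.42. Leaving out Vector tumor 1 gave 0.70 for T and NK cell, 0.90 for fibroblast and -1.06 for keratinocyte markers. The part of these cells in the values of the colony-stimulating factor genes was not tested.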

How the data were processed

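The deposited table holds log2(TPM + 1) values for 27919 symbols in 10 libraries; the log2 scale was read from the values by the present reanalysis. Converted back, 99.9% were multiples of 0.01 TPM within 0.01 hundredths, and libraries summed to 994679 to 996446. Per the submitters' processing notes, STAR 2.7.10b, RSEM 1.3.3 and mm39 were used; annotation, filters and the handling of reads shared between close copies are not given in the sources used here. Per the labels' protocols, RNA was extracted with TRIzol and sequenced on a NovaSeq.

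Pieces of a tumor were averaged on the log2 scale. limma 3.58.1 in R 4.3.3 (lmFit, eBayes with trend) compared 4 Ly86 with 3 Vector tumors over the 14556 genes that averaged 1 TPM or more, with Benjamini-Hochberg adjustment; the code was tested on simulated data. Fold changes on this scale understate those of low genes. Balances, within-library differences between genes or list means, had two-sided exact permutation tests, adjusted over 11.

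The members, the 12 other gene lists, the tests and the alternatives were chosen with earlier results of these data known. Named genes were the 8 members, Csf3r, Il3ra and Il3, up to 4 genes with the smallest unadjusted p per pathway list, and the 3 nearest profiles per tested member, leaving out predicted genes. The values of 1 gene that this rule names are not reported here. The lists held other cytokines and receptors of these families, receptor signaling, myeloid transcription factors, and markers of macrophages, neutrophils, dendritic cells, mast cells with basophils and eosinophils, T and NK cells, fibroblasts, endothelium, keratinocytes and melanocytes. Ly6g and Epx were not analysed here. Coding sequences came from GENCODE M21, aligned with Biopython 1.88; promoters are RefSeq's for GRCm38.p6, not the build of the expression values. Python 3.11.15 and matplotlib 3.10.9 drew the figures.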

Additional observations from a re-analysis of the deposited data

Results flagged for a closer look

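In the Ly86 group, 1 of 35 sets of 4 tumor values had a tumor far from the others by Dixon's criterion, which chance meets in about 1 of 20 sets. Csf1r exceeded Csf1 by 1.45 log2 units in Ly86 tumor 4, and the gap to the next Ly86 tumor was 0.837 of the group's range. Ly86 tumor 4 held 63.2 TPM of Csf1r and 22.5 TPM of Csf1.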

How the results depend on the processing

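The number of genes past the threshold was 0 with all tumors. It was 1 from first pieces alone, 6 from second pieces alone, 1 without the first piece of Vector tumor 2, 1832 with array weights and 0 to 2 when 1 tumor was left out. With array weights, 1 of the 6 tested members passed, Csf2ra at 0.63. So did 23 of the 168 genes of the other lists, not all of which were tested, and 1832 of all 14556 tested genes. In the other 21 alternatives no member and no gene of the other lists passed. Adjusted p-values over the alternatives ran from 0.066 to 1 for Csf1, 0.10 to 1 for Csf1r and 0.04999 to 1 for Csf2ra. Leaving out 1 tumor gave -0.31 to 0.96 for Il34, -0.019 to 0.90 for Csf1 minus Il34 and -0.014 to 0.47 for Csf2rb minus Csf2ra. Csf2rb2 minus Csf2rb was -0.033 with quantile normalization, -0.038 with only second pieces, -0.012 with TPM averaged before log2 and -0.074 to 0.051 with 1 tumor left out. Csf1r minus macrophage markers was 0.021 with quantile normalization, 0.095 with only first pieces, 0.0027 with TPM averaged before log2 and -0.11 to 0.082 with 1 tumor left out. The causes of these shifts were not tested. The tumor number as a replicate block gave 0 genes past the threshold, with Csf1 at 0.79 and Csf1r at 0.97. Same-numbered tumors deviated with correlations of -0.17, -0.11 and -0.31, and 0 of 6 correlated best with their own number. These values showed no pairing by number, but so few tumors cannot exclude a weak one. At a minimum mean of 5 TPM Il34 was not tested. Read depth is unknown, which limits Csf2 and Csf3 most, and with 1 tumor left out no balance could reach an exact p under 0.05.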
